A study of Homo sapiens with 9 samples.

Results

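The genes described here are 10 parts of the machinery that carries a cell through the G1 phase of the cell cycle: the D-type cyclins CCND1 and CCND3, their kinases CDK4 and CDK6, the E-type cyclins CCNE1 and CCNE2, their kinase CDK2, the retinoblastoma protein RB1, and the kinase inhibitors CDKN1B (p27) and CDKN2C (p18). They were taken from a named list, without a cut on measured values, out of 15487 genes that could be named in at least 1 library. The list was chosen with earlier results of these data known. Shares of all genes set beside its counts are therefore descriptions, not tests of the list. All 10 were assembled in every library, and all 10 averaged at least 1 FPKM, the level required for testing.

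D-type cyclins are made in response to growth signals and activate CDK4 and CDK6, which phosphorylate RB1. Phosphorylated RB1 releases E2F transcription factors, and E2F drives the E-type cyclins, which activate CDK2 and complete the passage into S phase. CDKN2C belongs to the INK4 family and binds CDK4 and CDK6, CDKN1B binds cyclin-CDK2 complexes, and in melanoma the pathway is commonly altered through loss of the INK4 locus or gain of CCND1 or CDK4.

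RNA was read by poly-A sequencing in WM3248, a human melanoma line grown in Tu2%, a medium used for melanoma cells. Wells were treated on the day after seeding with ARN22089, an inhibitor of the interaction between CDC42-family GTPases and their effectors, and RNA was taken 24 h later. The groups were 0 µM (DMSO vehicle), 4 µM and 6 µM, with 3 libraries each, and all 9 came from the same line. The labels leave unsaid whether the 3 libraries of each dose were cultured separately. The p-values therefore measure library-to-library spread only, and this may be technical. In bulk RNA, fewer cells in a given cell cycle phase and less RNA per cell cannot be told apart.

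The label was checked against melanocyte markers, of which 8 of 8 (among them DCT, MITF and TYR) were assembled. Their summed level ranged from 406 to 1389 FPKM at 0 µM, 1246 to 2359 FPKM at 4 µM and 1385 to 2054 FPKM at 6 µM. On average this sum was mostly S100B. Over the 9 libraries S100B averaged 1005 FPKM, DCT 214 FPKM, SOX10 142 FPKM, TYR 15.2 FPKM and MITF 15.1 FPKM. For these markers, 8 of 8 differences at 6 µM against 0 µM were positive, DCT passed with the coding base value, and the part of this in the results below was not tested. EPCAM, CDH1, KRT5, TP63, PECAM1, CDH5, VWF, PTPRC and CD3E were listed in no library. Other markers were assembled: KRT10 and KRT14 of the keratinocyte list (2 of 5 genes, summed level 28.9 to 38.8 FPKM over the 9 libraries, mostly KRT10), LYZ of the leukocyte list (2.62 to 4.45 FPKM) and 4 of 4 fibroblast markers. The fibroblast sum, mostly LUM, was 9.61 to 30.4 FPKM at 0 µM, 14.4 to 31.2 FPKM at 4 µM and 14.5 to 26.1 FPKM at 6 µM. The part of these markers in the results was not tested. KRT8 and KRT18 together stood at 153 FPKM in replicate 1 at 0 µM, against 23.9 to 61.4 FPKM in the other 8 libraries. Total read numbers are not given in the sources used here. The ratio of coverage to FPKM put the libraries' relative depths between 0.80 and 1.34. Log2 values of libraries of the same dose correlated across genes at 0.881 to 0.915 (summed value), and those of different doses at 0.856 to 0.914. Replicate 1 at 0 µM correlated with replicates 2 and 3 at 0.881 and 0.889, and these correlated with each other at 0.911. With FPKM averaged over coding bases (defined below), the same 3 coefficients were 0.925, 0.932 and 0.961.

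The deposited files hold separately assembled transcripts for each library, each with an FPKM (fragments scaled by transcript length and by the library's mapped fragments). Gene values of 3 kinds were read from them. The summed value added the FPKM of all transcripts of a gene, and it counts a gene more than once where the assembler had broken it into end-to-end pieces. The consensus exon value averaged FPKM over the exon bases assembled in at least 50% of the libraries, and the coding base value averaged FPKM over the coding bases of the gene's MANE Select transcript. Both averages count every transcript assembled over those bases, whatever its gene name or strand. Differences are on the scale of log2(FPKM + 1), which understates the change of low genes. A gene was called where the Benjamini-Hochberg adjusted p of limma, over all genes tested, was below 0.05.

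At 6 µM against 0 µM, CCND1 and CCNE2 fell by both base-averaged measures and CDK6 fell by the consensus exon value. By each measure 8 of the 10 differences were negative, where 53.4% (summed), 55.8% (consensus exon) and 60.0% (coding base) of all genes had negative differences. CDKN1B and CDK2 were the 2 with positive differences. With the summed value, 0 of 10 were called, and 0.328% of all 12495 genes tested were. At an unadjusted p below 0.05, 5 of 10 were lower and 0 higher, against 9.62% of all genes lower and 7.99% higher. With the consensus exon value 3 of 10 were called lower, against 2.31% of all 12668 genes called lower. With the coding base value 2 of 10 were called lower, against 3.82% of all 11069 genes.

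The median difference of the 10 genes was -0.67 with the summed value, -0.61 with the consensus exon value and -0.60 with the coding base value. The medians over all genes were -0.03, -0.05 and -0.10. With TPM in place of summed FPKM, the median over all genes moved up to 0.23, that of the 10 genes was -0.38, 7 of the 10 differences were negative and 0 of 10 were called. Of all genes, 19 were then called higher and 1 lower, against 24 higher and 17 lower with FPKM. TPM divides by each library's FPKM sum. The 2 largest transcripts held 18%, 12.4% and 38.8% of that sum at 0 µM, and 5.40%, 7.68% and 12.4% at 6 µM. The part of this in the TPM differences was not tested. The TPM differences were -0.58 for CCND1, -0.34 for CCND3, -0.29 for CCNE1, -0.42 for RB1 and -0.50 for CDKN2C, smaller in size than with summed FPKM, and 0.66 for CDK2 and 0.64 for CDKN1B, larger than with summed FPKM. With the consensus exon value, none of the 10 was called after leaving out replicate 2 or 3 at 0 µM or replicate 1 or 2 at 6 µM. With the coding base value, none was called after leaving out replicate 3 at 0 µM or replicate 1 or 2 at 6 µM, and 4 were called without replicate 3 at 6 µM.

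At 4 µM against 0 µM, 0 of 10 were called by any of the 3 measures, where 0.08% of all genes were called with the summed value, 0.071% with the consensus exon value and 0.0813% with the coding base value. Their median summed difference was -0.34, against -0.00 for all genes, and 2 had an unadjusted p below 0.05 on the lower side and 1 on the higher, against 4.59% and 6.21% of all genes. With TPM, whose median over all genes was 0.31, 5 of the 10 differences were negative, and CCND3, CDK4 and CCNE1 turned positive. The 2 largest transcripts held 12.4% to 38.8% of the FPKM sum at 0 µM, against 2.34% to 7.25% at 4 µM. The part of this in the TPM signs was not tested. At 6 µM against 4 µM, 0 of 10 were called, against 0.056% of all genes with the summed value, and 0.0237% and 0.0271% with the consensus exon and coding base values. At an unadjusted p below 0.05, 0 of 10 were lower with the summed value (2.91% of all genes), 1 with the consensus exon value (3.24%) and 2 with the coding base value (3.85%). The 0 µM libraries enter both comparisons with vehicle, so those differences are not independent. With the replicate number as a block, the summed calls over all genes numbered 4 at 6 µM against 0 µM (41 without the block), 2 at 4 µM against 0 µM (10 without it) and 1 at 6 µM against 4 µM (7 without it).

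**Figure D1:**
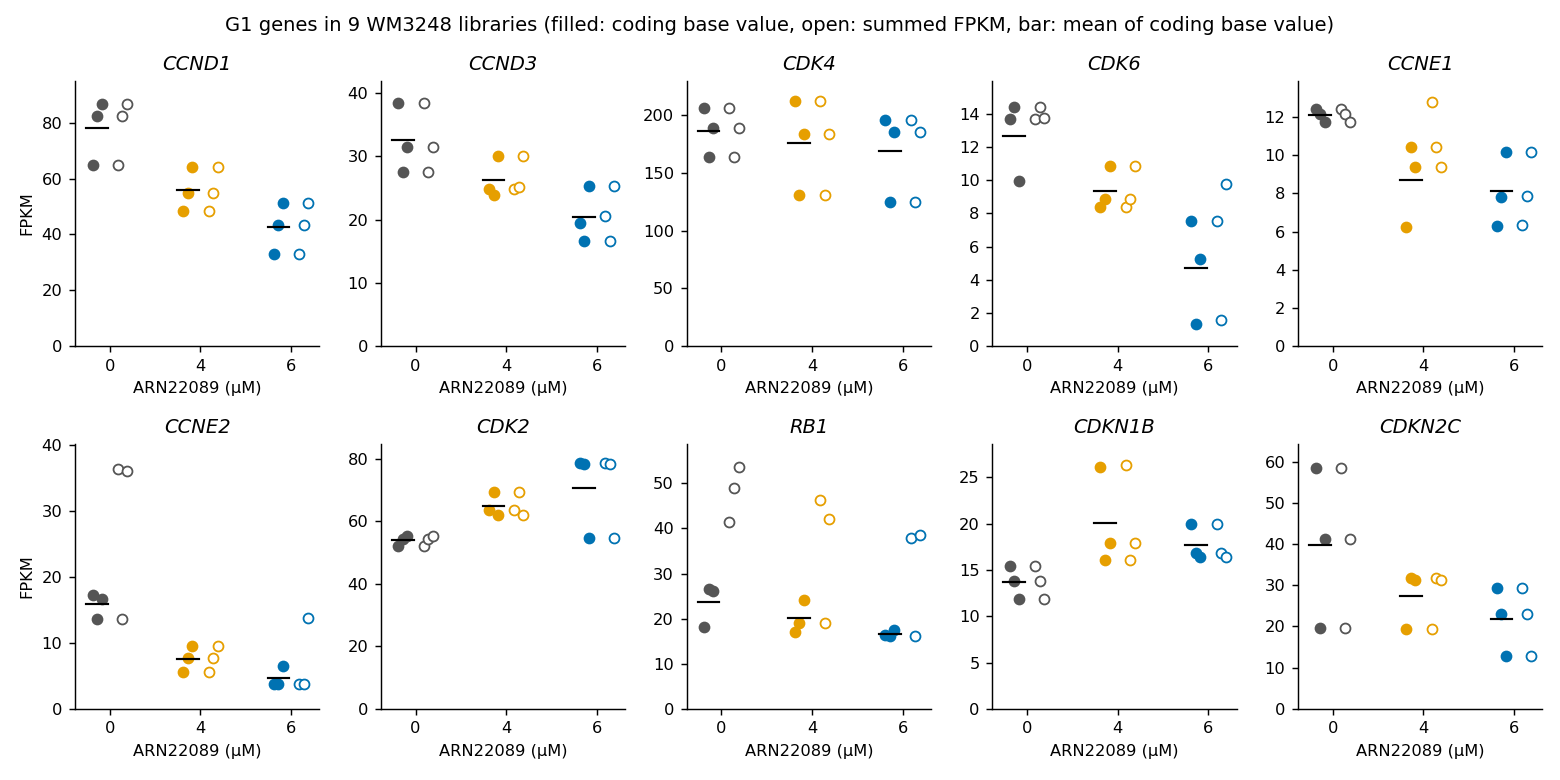
Levels of the 10 genes in FPKM (vertical axes, from 0) in each library at 0, 4 and 6 µM ARN22089 (horizontal axes). Filled points are coding base values, open points summed FPKM and bars the mean coding base value of 3 libraries; CCND1 lay at 33.0 to 51.2 FPKM at 6 µM, and the summed values of CCNE2 and RB1 stand above their coding base values in the libraries that assembled them in pieces.

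CCND1 (cyclin D1; chromosome 11, 69641156 to 69654474, GRCh38) is the D-type cyclin most often amplified in melanoma. Its coding base value was 64.9, 82.3 and 86.8 FPKM at 0 µM, 48.5, 54.8 and 64.2 FPKM at 4 µM and 33.0, 43.5 and 51.2 FPKM at 6 µM. Every 6 µM library lay below every 0 µM library, as did every 4 µM library, while the 4 and 6 µM libraries overlapped. The gene was assembled as 1 transcript in each library, so the 3 measures nearly coincide. At 6 µM it averaged 42.6 ± 9.12 FPKM, against 78.0 ± 11.6 FPKM at 0 µM (SD, n = 3 each), a log2 difference of -0.87 ± 0.19 (SE).

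The call of CCND1 lay near the threshold. Its limma adjusted p was 0.0405 with the coding base value and 0.0469 with the consensus exon value, and 0.0864 with the summed value. It held in 3 of 9 fits that left out a library with the coding base value and in 1 of 9 with the consensus exon value, where the adjusted p reached 0.132 and 0.146. Between libraries of the same number, the difference in log2(FPKM + 1) of 6 µM against 0 µM was -0.95, -0.91 and -0.75. At 4 µM the difference was -0.47 ± 0.19 (SE; limma adjusted p = 0.31).

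CCND3 (cyclin D3; chromosome 6, 41934933 to 42050035, minus strand) is the second D-type cyclin of these cells. CCND2, the remaining member of the family, was listed in no library. The coding base value of CCND3 was 38.5, 27.6 and 31.5 FPKM at 0 µM, 24.9, 23.9 and 30.0 FPKM at 4 µM and 19.4, 16.6 and 25.3 FPKM at 6 µM. The 6 µM libraries all lay under the 0 µM libraries, whereas the 4 µM libraries overlapped both. The difference of 6 µM against 0 µM was -0.65 ± 0.18 (SE) and missed the threshold (limma adjusted p = 0.0698). It passed when replicate 3 at 6 µM was left out (limma adjusted p = 0.0413).

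RefSeq lists 3 starts for CCND3, and most assembled transcripts began at the middle one. Transcripts that began within 150 bases of it summed to 32.5 ± 5.51 FPKM at 0 µM, 26.7 ± 2.86 FPKM at 4 µM and 19.2 ± 5.32 FPKM at 6 µM (SD, n = 3), and none began within that distance of the other 2 starts. A further transcript of 4.88 FPKM in replicate 1 at 6 µM began just beyond that distance upstream of the first start. The 120 bases before the middle start are printed because transcripts began there in every library (GRCh38, chr6:41941809-41941928, minus strand, 5′ to 3′).
CCND3 middle start: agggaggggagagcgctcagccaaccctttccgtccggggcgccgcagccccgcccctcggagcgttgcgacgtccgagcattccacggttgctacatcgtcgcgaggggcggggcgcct

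RefSeq promoters, each 300 bases long with 250 before the start, matched 7 of the 10 genes (not CCND1, CDK2 and CCNE2) with 12 starts (GRCh38). The single RB1 entry starts at 48476450, inside the gene and far from its 5′ end, and no assembled transcript began there. The letters TTTNNCGC, a form of the E2F site, were searched on both strands and occurred in 0 of the 12, against 6.89% of 35116 promoters. CACGTG, the E-box bound by MYC and MITF, reads the same on both strands and occurred in 4 of the 12, against 7.26% of all promoters. CDK4 held 3 of these matches, and the upstream CDK6 start and 2 CDKN2C starts held 1 each. With no match to the first motif, the motifs did not overlap. A match describes letters, not binding.

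CDK4 (chromosome 12, 57747727 to 57752310, minus strand) was the most abundant of the 10 genes and the one whose level moved least at 6 µM. By coding bases, CDK4 was at 206, 164 and 189 FPKM at 0 µM, 212, 131 and 184 FPKM at 4 µM and 196, 125 and 186 FPKM at 6 µM. The doses overlapped, and replicate 2 was the lowest library of each dose. In replicate 2 at 4 µM and at 6 µM the transcript was assembled with its whole 3′ UTR of 801 bases. The other libraries covered 24.2% to 30.5% of it. The part of this in the levels was not tested. The difference of 6 µM against 0 µM was -0.16, with a 95% interval from -0.68 to 0.36 (limma adjusted p = 0.685). The interval includes changes of either sign, and the difference was 0.04 without replicate 2 at 6 µM and 0.14 with TPM.

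CDK6 (chromosome 7, 92604921 to 92836573, minus strand) has a short coding sequence of 978 bases and a 3′ UTR of 10222 bases, so the measures read different stretches of RNA. Its consensus exon value, which rests mainly on the 3′ UTR, was 13.6, 14.3 and 13.1 FPKM at 0 µM, 8.34, 8.81 and 10.8 FPKM at 4 µM and 7.47, 7.27 and 9.06 FPKM at 6 µM. All 6 treated libraries lay below the 0 µM libraries, and the 4 and 6 µM libraries overlapped. In replicate 2 at 6 µM the transcript named CDK6 had 1.60 FPKM and covered 8.22% of the 3′ UTR. Most of the 7.27 FPKM there came from transcripts without that name, and the part of this in the call was not tested. At 6 µM CDK6 averaged 7.93 ± 0.982 FPKM, against 13.7 ± 0.599 FPKM at 0 µM (SD, n = 3 each), a log2 difference of -0.72 ± 0.12 (SE; limma adjusted p = 0.032). The call held in 2 of 9 fits that left out a library, with an adjusted p of at most 0.124. At 4 µM the consensus difference was -0.52 ± 0.12 (SE; limma adjusted p = 0.20).

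The coding bases of CDK6 gave 13.7, 14.4 and 9.97 FPKM at 0 µM, 8.40, 8.86 and 10.9 FPKM at 4 µM and 7.51, 1.32 and 5.23 FPKM at 6 µM. The 6 µM libraries again lay lowest, and replicate 2 at 6 µM stood far below the rest. In that library the only named CDK6 transcript covered 1649 bases, and the distal 3′ UTR was assembled apart from it. The coding difference was -1.44 ± 0.41 (SE; limma adjusted p = 0.0705), and with the summed value it was -1.27 ± 0.46 (SE; limma adjusted p = 0.21). Without replicate 2 at 6 µM the summed difference was -0.64 and the coding difference -0.89.

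CDK6 was assembled from 2 starts, both known to RefSeq. Transcripts from the upstream start were at 10.1, 9.47 and 8.45 FPKM at 0 µM, 5.30, 8.86 and 5.43 FPKM at 4 µM and 6.72, 0 and 1.66 FPKM at 6 µM. Transcripts from the downstream start were at 3.62, 4.94 and 0 FPKM at 0 µM, 3.09, 0 and 5.44 FPKM at 4 µM and 0.788, 0 and 1.25 FPKM at 6 µM. Further CDK6 transcripts began at neither start, with 1.60 FPKM in replicate 2 and 6.87 FPKM in replicate 3 at 6 µM, and 5.32 FPKM in replicate 3 at 0 µM. The values per start leave out this FPKM, which in replicate 2 at 6 µM was all that was named as CDK6. The upstream form carried most of the FPKM at 0 µM, and a listed 0 means that no transcript from that start was assembled in that library. The 120 bases before each start are given because both forms were present (GRCh38, minus strand, chr7:92836574-92836693 and chr7:92833960-92834079).
CDK6 upstream start: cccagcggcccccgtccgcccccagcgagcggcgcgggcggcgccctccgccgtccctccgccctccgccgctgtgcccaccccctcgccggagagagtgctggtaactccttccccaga
CDK6 downstream start: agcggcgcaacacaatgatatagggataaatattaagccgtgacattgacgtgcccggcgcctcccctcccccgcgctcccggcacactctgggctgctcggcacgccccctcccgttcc

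CCNE1 (cyclin E1; chromosome 19, 29811991 to 29824312) is an E2F target and activator of CDK2. Its coding base value was 12.4, 12.1 and 11.8 FPKM at 0 µM, 6.23, 10.4 and 9.39 FPKM at 4 µM and 6.32, 7.83 and 10.2 FPKM at 6 µM. The 0 µM libraries lay close together and above all 6 treated libraries, which spread more widely. The difference of 6 µM against 0 µM was -0.55 ± 0.20 (SE) and that of 4 µM against 0 µM was -0.46 ± 0.20 (SE), and neither passed (limma adjusted p = 0.13 and 0.33). The summed difference at 4 µM was -0.15, where replicate 1 was assembled as a 5′ piece of 5.29 FPKM and a 3′ piece of 7.49 FPKM that the summed value adds. The 120 bases before its start are shown for comparison with the kinase promoters (GRCh38, chr19:29811871-29811990, plus strand).
CCNE1: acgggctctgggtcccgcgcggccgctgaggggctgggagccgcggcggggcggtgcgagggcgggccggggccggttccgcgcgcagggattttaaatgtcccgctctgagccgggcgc

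CCNE2 (cyclin E2; chromosome 8, 94880224 to 94896693, minus strand), the paralogue of CCNE1 and likewise an E2F target, had the lowest ratio to vehicle of the 10 genes at 6 µM. Its coding base value was 17.3, 13.6 and 16.7 FPKM at 0 µM, 5.59, 7.77 and 9.54 FPKM at 4 µM and 3.80, 3.78 and 6.44 FPKM at 6 µM. Both doses lay wholly below the 0 µM libraries, and 2 of the 6 µM libraries lay below every 4 µM library. At 6 µM CCNE2 averaged 4.67 ± 1.53 FPKM, against 15.8 ± 1.98 FPKM at 0 µM (SD, n = 3 each), which is 0.295 times the vehicle level. The log2 difference was -1.60 ± 0.23 (SE; limma adjusted p = 0.0191), rank 37 of 11069 genes by p.

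The consensus exon value gave -1.50 ± 0.21 (SE; limma adjusted p = 0.0274). The call held in 6 of 9 fits without a library by the coding base value and in 5 of 9 by the consensus exon value, and the adjusted p was at most 0.093 and 0.116. At 4 µM the coding difference was -0.98 ± 0.23 (SE; limma adjusted p = 0.19). At 6 µM against 4 µM it was -0.61 ± 0.23 (SE; limma adjusted p = 0.925, unadjusted p = 0.0247). By replicate number, the difference in log2(FPKM + 1) of 6 µM against 0 µM was -1.93, -1.61 and -1.25.

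The summed value of CCNE2 was 36.3, 13.6 and 36.0 FPKM at 0 µM, 5.59, 7.77 and 9.54 FPKM at 4 µM and 3.80, 3.78 and 13.8 FPKM at 6 µM. The 3 highest values all belong to libraries in which the gene was assembled as 2 transcripts. In replicate 1 at 0 µM, a 5′ piece with 6 of the 11 introns stood at 23.9 FPKM and a 3′ piece with 4 introns at 12.4 FPKM. Adding the pieces gave a summed difference of -1.96 ± 0.52 (SE; limma adjusted p = 0.11). For transcripts of full intron chain, the deposited confidence bounds were 3.24 and 4.35 FPKM in replicate 1 at 6 µM, against 12.3 and 14.9 FPKM in replicate 2 at 0 µM.

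**Figure D2:**
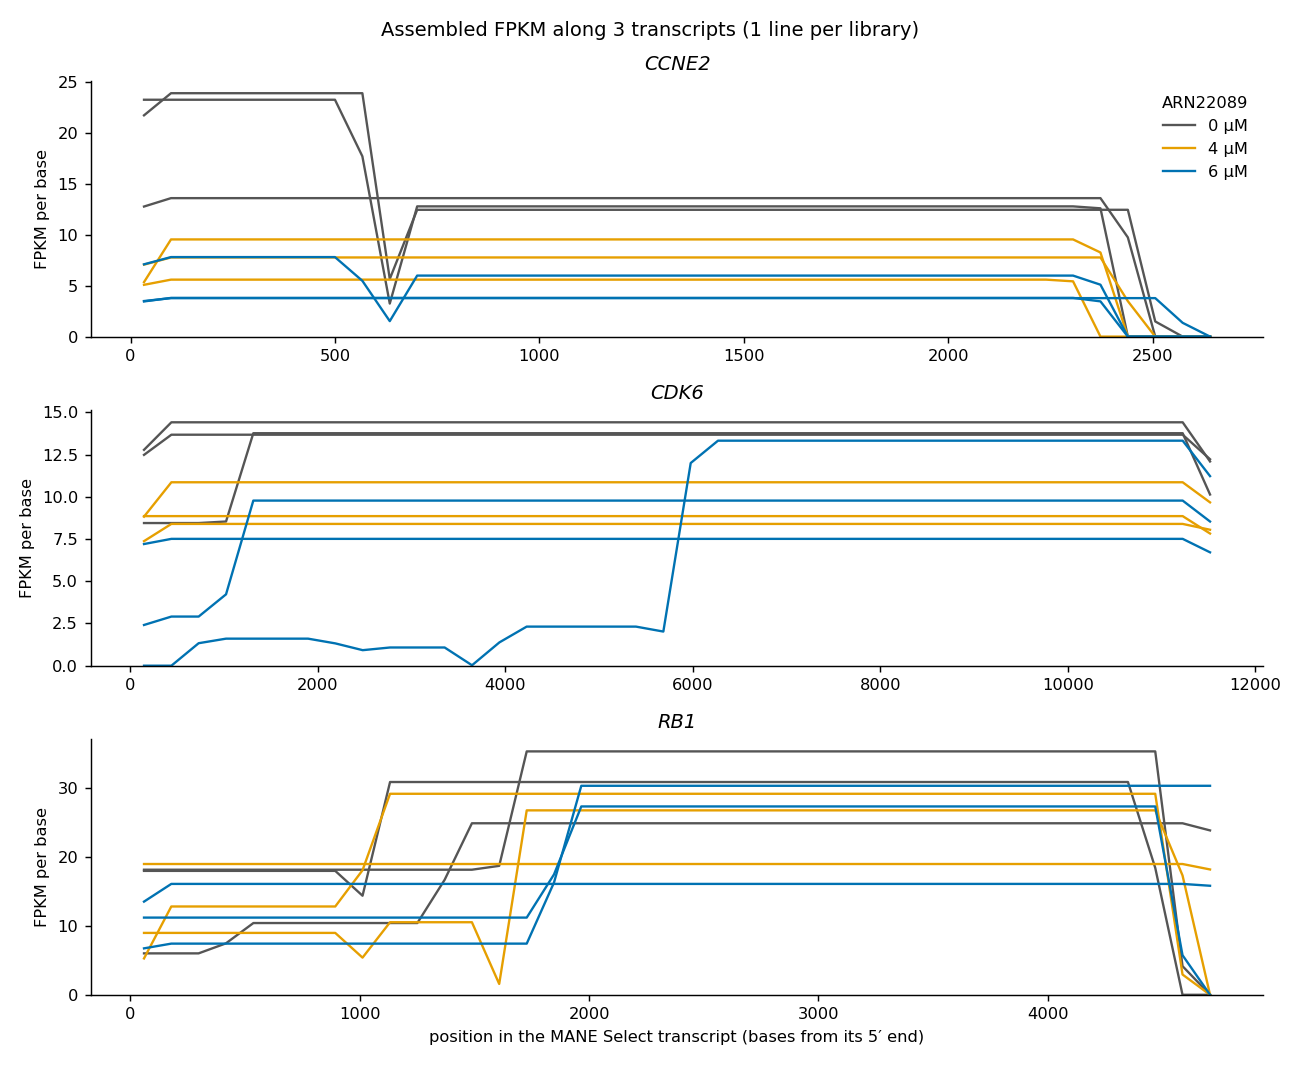
FPKM per base (vertical axes) along the MANE Select transcripts of CCNE2, CDK6 and RB1 (horizontal axes, bases from the 5′ end), 1 line per library coloured by dose. For CCNE2 the 6 µM lines stay under 8 FPKM along the whole transcript, a dip in the 5′ part marks the break between pieces in 3 libraries, and for CDK6 one 6 µM line (replicate 2) stays at or under 2.31 FPKM in the 5′ part and stands at 13.3 FPKM in the distal 3′ UTR.

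CDK2 (chromosome 12, 55966830 to 55972789), the kinase bound by the E-type cyclins, had positive differences at both doses. By coding bases, CDK2 was at 52.3, 54.5 and 55.3 FPKM at 0 µM, 63.5, 69.4 and 62.0 FPKM at 4 µM and 78.8, 78.4 and 54.6 FPKM at 6 µM. The 4 µM libraries all lay above the 0 µM libraries, while replicate 3 at 6 µM lay within their range. The difference was 0.36 ± 0.15 (SE) at 6 µM and 0.26 ± 0.15 (SE) at 4 µM against 0 µM, and neither passed (limma adjusted p = 0.18 and 0.43). Without replicate 3 at 6 µM, the coding difference at 6 µM was 0.53 (limma adjusted p = 0.0438). The consensus exon value at 4 µM gave a difference of 0.03 against vehicle, with replicate 3 at 33.8 FPKM. In that library the assembled transcript covered 3.08% of the 3′ UTR bases, against at least 68.4% in the others. Bases that were not assembled count as 0 in the consensus exon value.

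RB1 (chromosome 13, 48303751 to 48481890), the substrate of these kinases and the repressor of E2F, has 27 exons and was mostly assembled in pieces. The coding base value of RB1 was 18.2, 26.6 and 26.1 FPKM at 0 µM, 17.0, 19.0 and 24.1 FPKM at 4 µM and 16.4, 16.1 and 17.5 FPKM at 6 µM. The 6 µM libraries lay narrowly below the lowest 0 µM library. The difference was -0.46 ± 0.18 (SE; limma adjusted p = 0.14), and -0.37 ± 0.17 with the consensus exon value (SE; limma adjusted p = 0.23). Only replicate 2 at 4 µM and replicate 2 at 6 µM held all 26 introns in 1 transcript, at 19.0 and 16.1 FPKM. In the other libraries the 5′ pieces were read at lower FPKM than the 3′ pieces, for example 7.44 against 30.4 FPKM in replicate 1 at 6 µM.

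CDKN1B (p27; chromosome 12, 12717368 to 12722369), which inhibits cyclin E-CDK2, was the inhibitor with higher values after treatment. The CDKN1B coding base value was 15.5, 13.8 and 11.9 FPKM at 0 µM, 26.1, 16.1 and 17.9 FPKM at 4 µM and 19.9, 16.8 and 16.4 FPKM at 6 µM. By this measure all 6 treated libraries lay above the 0 µM libraries. In replicate 1 at 4 µM it adds a 2-exon transcript of 11.7 FPKM to a 3-exon transcript of 14.6 FPKM. The consensus exon value averaged 13.6 FPKM at 0 µM, 17.2 FPKM at 4 µM and 17.5 FPKM at 6 µM. With that value, replicate 2 at 4 µM (14.6 FPKM) lay below replicate 1 at 0 µM (15.5 FPKM). The coding difference was 0.35 ± 0.19 (SE) at 6 µM and 0.49 ± 0.19 (SE) at 4 µM against 0 µM, and neither passed (limma adjusted p = 0.27 and 0.28).

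CDKN2C (p18; chromosome 1, 50960745 to 50974634) inhibits CDK4 and CDK6 and is itself known as an E2F target. Its coding base value was 58.5, 19.6 and 41.2 FPKM at 0 µM, 19.4, 31.8 and 31.2 FPKM at 4 µM and 29.4, 23.0 and 12.8 FPKM at 6 µM. The 0 µM libraries spread widely and overlapped the others. The difference of 6 µM against 0 µM was -0.79 ± 0.42 (SE; limma adjusted p = 0.26), and -0.72 ± 0.21 with the consensus exon value (SE; limma adjusted p = 0.0803).

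CDKN2C was assembled from 2 starts known to RefSeq. A 3-exon transcript from an upstream start was at 21.7, 19.6 and 17.1 FPKM at 0 µM, 14.2, 13.2 and 15.9 FPKM at 4 µM and 9.69, 10.1 and 12.8 FPKM at 6 µM. The doses did not overlap, with 0 µM highest and 6 µM lowest. In replicate 2 at 0 µM and replicate 3 at 6 µM only the 3-exon transcript was assembled, and it held all FPKM of the gene there. In the other libraries the FPKM was divided between 2 forms, so the values are not fully alike. How many other transcripts were ordered by dose in this way was not counted. A 2-exon transcript from a downstream start was at 36.8, 0 and 24.2 FPKM at 0 µM, 5.27, 18.5 and 15.4 FPKM at 4 µM and 19.7, 12.9 and 0 FPKM at 6 µM, with overlap throughout. The split into forms was made after the values were seen and is given without a test. RefSeq's first start, farther upstream, was used in no library. The 120 bases before the downstream start are shown because this form was not assembled in 2 libraries, with the CACGTG match in capitals (GRCh38, chr1:50970125-50970244, plus strand).
CDKN2C downstream start: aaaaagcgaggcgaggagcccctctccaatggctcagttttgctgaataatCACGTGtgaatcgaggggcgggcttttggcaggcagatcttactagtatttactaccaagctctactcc

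**Figure D3:**
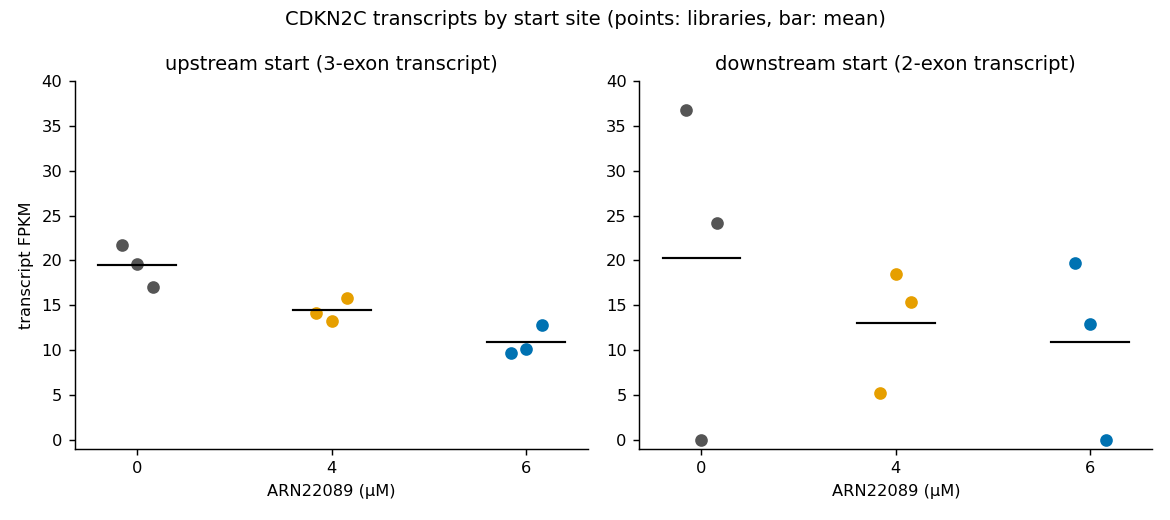
FPKM of CDKN2C transcripts (vertical axes) from the upstream start (left panel) and the downstream start (right panel) at 0, 4 and 6 µM ARN22089; points are libraries and bars the mean of 3. Upstream-start values lie between 17.1 and 21.7 FPKM at 0 µM, 13.2 and 15.9 FPKM at 4 µM and 9.69 and 12.8 FPKM at 6 µM, and downstream-start values overlap between doses.

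Counted over the 10 genes, 6 did not overlap on the lower side between 6 µM and 0 µM with the coding base value (CCND1, CCND3, CDK6, CCNE1, CCNE2 and RB1), against 22.3% of all genes, and CDKN1B did not overlap on the higher side, against 10.4%. At 4 µM against 0 µM, 3 did not overlap on the lower side (CCND1, CCNE1 and CCNE2), against 12.4% of all genes, and CDK2 and CDKN1B on the higher side, against 10%. At 6 µM against 4 µM only CDK6 did not overlap, on the lower side, against 9.01% of all genes. These counts use the coding base value. With the consensus exon value, 6 lay wholly lower at 6 µM against 0 µM, with CDKN2C in place of RB1 (18.9% of all genes). At 4 µM against 0 µM, 4 then lay lower (10.7%) and 0 higher (10.4%). At 6 µM against 4 µM, 0 lay lower (8.16%). With the summed value, 5 lay lower at 6 µM against 0 µM, without CCNE2 (13.9%), and 0 at 6 µM against 4 µM (7.19%).

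**Figure D4:**
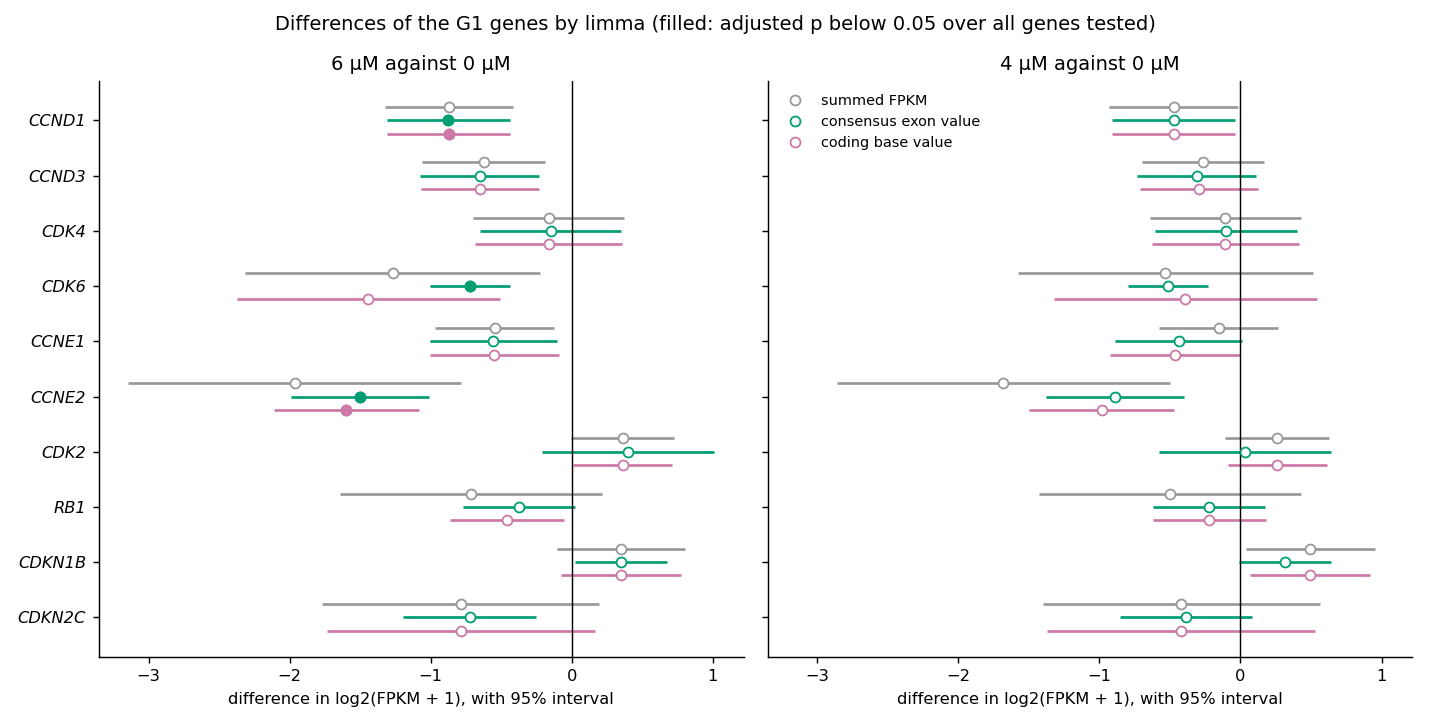
Differences in log2(FPKM + 1) of the 10 genes (rows) at 6 µM (left panel) and 4 µM (right panel) against 0 µM, with 95% intervals, for the summed, consensus exon and coding base values; filled points have a limma adjusted p below 0.05. Filled points appear only at 6 µM, for CCND1, CDK6 and CCNE2, and CDK2 and CDKN1B are the genes with positive values.

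The genes differed widely in level. By mean coding base value at 0 µM, CDK4 (187 FPKM) stood above CCND1 (78.0 FPKM) and CDK2 (54.0 FPKM) without overlap. CDKN2C (39.8 FPKM) overlapped CDK2 and CCND3 (32.5 FPKM), RB1 (23.6 FPKM) stood below CCND3, and CCNE2, CDKN1B, CDK6 and CCNE1 (15.8, 13.7, 12.7 and 12.1 FPKM) followed with each neighbour overlapping the next. At 4 µM, CDK2 (65.0 FPKM) and CCND1 (55.8 FPKM) overlapped, and CCNE2 (7.63 FPKM) was last. At 6 µM, CDK2 (70.6 FPKM) stood above CCND1 (42.6 FPKM) without overlap, and CCNE2 (4.67 FPKM) was again last. FPKM is per length, which allows levels of different genes to be set side by side.

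Within families, CCNE2 was read at 1.39, 1.12 and 1.42 times CCNE1 at 0 µM, 0.897, 0.746 and 1.01 times at 4 µM and 0.601, 0.482 and 0.634 times at 6 µM (coding base values). The 0 µM ratios all lay above 1 and the 6 µM ratios all below. CCND1 was read at 1.69, 2.98 and 2.75 times CCND3 at 0 µM, 1.95, 2.29 and 2.14 times at 4 µM and 1.70, 2.61 and 2.02 times at 6 µM, with overlap. CDK4 exceeded CDK6 14.8, 11.3 and 14.3 times at 0 µM, 24.4, 14.9 and 17.1 times at 4 µM and 25.6, 17.2 and 20.5 times at 6 µM by the consensus exon value. These ratios are descriptions without a test.

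Around these genes, 32 further G1/S genes were examined: other inhibitors, the RB1 relatives RBL1 and RBL2, the phosphatase CDC25A, cyclin A2, subunits of the CDK-activating kinase, and ubiquitin ligase parts that degrade cyclins and p27. Of these, 29 were assembled and tested. This list too was chosen with earlier results of these data known, so its counts beside the shares of all genes are descriptions. At 6 µM against 0 µM, 4 of 29 fell with the coding base value and 0 rose, and the same 4 fell with the consensus exon value, against 3.82% and 2.31% of all genes called lower. With the summed value 0 of 29 were called, and 7 had an unadjusted p below 0.05, against 17.6% of all genes. Their median coding difference was -0.28. At 4 µM against 0 µM and at 6 µM against 4 µM, 0 of 29 were called by any measure.

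The 4 genes were CCNA2, CDC25A, RBL1 and SKP2. CCNA2, the S-phase cyclin that follows the E-type cyclins on CDK2, was at 10.2, 10.9 and 17.1 FPKM at 6 µM, against 36.6, 42.5 and 40.8 FPKM at 0 µM (coding base value), a difference of -1.61 ± 0.26 (SE; limma adjusted p = 0.0249). CDC25A, which activates CDK2 by dephosphorylation, was at 1.84, 2.54 and 4.33 FPKM at 6 µM, against 12.1, 8.33 and 9.70 FPKM at 0 µM, a difference of -1.54 ± 0.26 (SE; limma adjusted p = 0.0252). In both genes no 6 µM library reached a 0 µM library.

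RBL1 (p107), a pocket protein related to RB1, was at 2.14, 1.60 and 3.44 FPKM at 6 µM, against 6.15, 6.31 and 6.03 FPKM at 0 µM, a difference of -1.11 ± 0.20 (SE; limma adjusted p = 0.0268). SKP2, the ligase subunit that marks p27 for degradation, was at 5.39, 5.54 and 9.70 FPKM at 6 µM, against 25.7, 15.8 and 14.6 FPKM at 0 µM, a difference of -1.32 ± 0.26 (SE; limma adjusted p = 0.0318). The 4 µM libraries lay between the means of both doses for all 4 genes. None of the 4 was called with the coding base value without replicate 2 or 3 at 0 µM or without replicate 1 or 2 at 6 µM.

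The other inhibitors gave no call. CDKN1A (p21) was at 78.8, 77.8 and 110.4 FPKM at 6 µM, against 99.0, 101 and 100.1 FPKM at 0 µM. CDKN2D (p19) was at 17.7, 16.3 and 16.5 FPKM at 6 µM, against 27.1, 17.0 and 16.9 FPKM at 0 µM. Both genes overlapped between doses. No transcript overlapped CDKN2A (p16) or CDKN2B (p15), the INK4 genes of chromosome 9, in any of the 9 libraries, while transcripts over the neighbouring MTAP gene summed to between 9.98 and 53.6 FPKM.

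**Figure D5:**
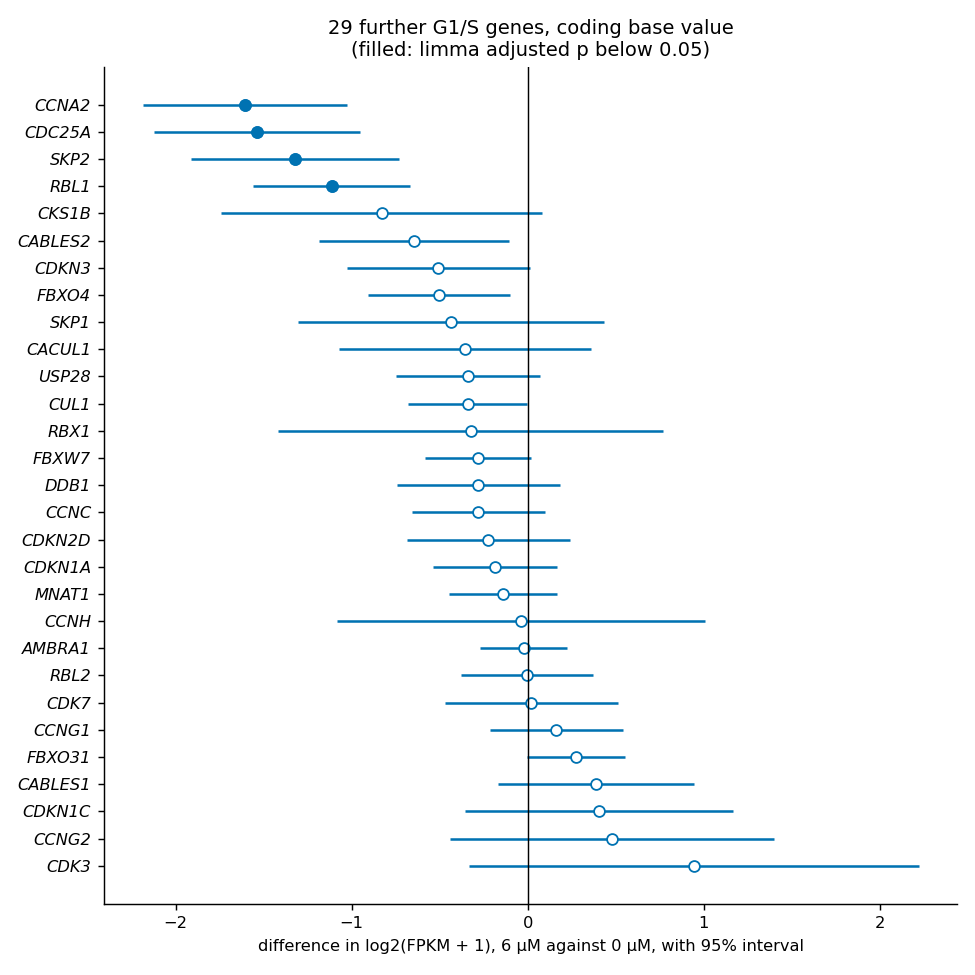
Differences in log2(FPKM + 1) at 6 µM against 0 µM (horizontal axis, coding base value, with 95% intervals) for 29 further G1/S genes (rows, sorted by difference). The 4 filled points, CCNA2, CDC25A, SKP2 and RBL1, have a limma adjusted p below 0.05 and lie between -1.61 and -1.11.

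The genes most like the 3 with the largest consensus differences were looked up over the 9 libraries by Pearson's r of the consensus exon value. CCNE2 was closest to RBL1 (0.993), CCNA2 (0.988) and BUB1, a mitotic checkpoint kinase (0.987). CCND1 was closest to MDC1, a DNA damage adaptor (0.990), SH3TC2-DT (0.981) and CRISPLD1 (0.977). CDKN2C was closest to FH, the fumarase (0.963), EXOC7 (0.952) and U2SURP (0.952). These coefficients share the dose contrast and the libraries, and they are given as a description.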

How the data were processed

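The deposited files hold, for each of the 9 libraries, transcripts assembled by the authors with their FPKM, coverage and confidence bounds. The tools, per the submitters' processing notes, included Cufflinks 2.2.1, TopHat2 2.1 with Bowtie2 2.2.7, Trimmomatic, R 4.0.3 and SAMtools 1.9. The notes name another human build, but 97.9% of 1693002 introns lay at GENCODE positions of GRCh38 and 0.727% at those of GRCh37, so GRCh38 was used. Of 193769 spliced transcripts, 97.3% were given a gene by same-strand overlap and shared introns.

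Values of genes averaging at least 1 FPKM were tested as log2(FPKM + 1) in limma 3.58.1 (R 4.3.3, with a mean-variance trend) over all 9 libraries, with Benjamini-Hochberg adjustment over all genes tested. The summed value was planned as the main one and the consensus exon value as an alternative; the coding base value was added after seeing that broken genes were counted more than once. The fit was tested on simulated data. For 6 µM against 0 µM it recovered 154 of 200 genes given a log2 change of 2, with 5 false calls. For 4 µM against 0 µM, where no change was given, it made 0 false calls. Naming and tables were made in Python 3.11.15.

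The labels give same-numbered libraries of different doses the same entry in the form of a date, whose meaning they do not state. The reported fits had no block, and fits with the replicate number as a block were run beside them. Deviations from the dose means correlated at -0.01 to 0.13 between same-numbered libraries (summed value, median 0.06), against a median of -0.02 between others. With the consensus exon value the range was 0.02 to 0.17 (median 0.05, against -0.02 between others). With the coding base value it was 0.007 to 0.19 (median 0.06, against -0.03 between others). The 10 genes are all named; of the other G1/S genes, those called with the summed or consensus exon value are named, and CDKN1A, CDKN2D, CDKN2A, CDKN2B, CCND2 and MTAP were added after their values were seen. The genes and lists were chosen with earlier results of these data known.

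Total read numbers are not given in the sources used here, so no counting interval was computed. In replicate 3 at 0 µM, the FPKM summed to 1061112, of which 2 short transcripts held 38.75%, against sums of 587999 to 689699 in the other libraries.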

Additional observations from a re-analysis of the deposited data

How the results depend on the processing

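The number of members called at 6 µM against 0 µM was 0 with the summed value under each other scaling, filter, pseudocount, trend and naming run, 3 with the consensus exon value and 2 with the coding base value. With the replicate number as a block it was 0 with the summed value, 3 with the consensus exon value and 2 with the coding base value, so the block changed no call of a member. Leaving out 1 library in turn gave 0 with the summed value, 0 to 3 with the consensus exon value and 0 to 4 with the coding base value. At 4 µM against 0 µM and at 6 µM against 4 µM, 0 of the 10 genes were called under every alternative run. The other G1/S genes called at 6 µM against 0 µM numbered 4 with the consensus exon value, 4 with the coding base value, 5 and 4 with the block added, 0 to 1 without a library with the summed value, and 0 to 5 with each of the other values. The fifth was CABLES1, which was higher by 0.71 (limma adjusted p = 0.0481).

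Over all genes, the calls at 6 µM against 0 µM numbered 41 with the summed value, 479 with the consensus exon value, 614 with the coding base value, 20 with TPM, 12 with only the 6 libraries compared and 18 without a mean-variance trend. With the replicate block they were 4, 633 and 775 for the summed, consensus exon and coding base values. Without a library they ranged from 15 to 65, 15 to 525 and 7 to 773. At 4 µM against 0 µM the count was 10, and with the block 2, 6 and 5; without a library it ranged from 3 to 24, 7 to 22 and 4 to 19. At 6 µM against 4 µM the count was 7, against 3 with the consensus exon value, 3 with the coding base value, 4 with TPM, 3 with the 6 libraries compared, 3 with naming by overlap alone, and 1, 0 and 3 with the block; without a library it ranged from 2 to 13, 0 to 9 and 1 to 11. The causes of these shifts were not tested.

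With 3 libraries a dose and unknown read totals, differences of the size seen for CCND3, CCNE1, RB1 and CDKN1B did not pass with all 9 libraries, which does not show that these genes were unaffected.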
